A study of Homo sapiens with 8 samples.

Results

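The mitochondrial ribosomal proteins were followed here as the 73 genes, of 18404 measured, whose symbol begins with MRPL or MRPS and a digit. Pseudogenes were left out (1 symbol), only probe sets carrying 1 gene symbol were used, and a gene with several was read from the brightest over all arrays. By their place in the structure of the human mitoribosome, 50 of the 73 belong to the large subunit and 23 to the small one. MRPS30 and MRPS18A are among the 50 in spite of their names. Another 4 probe sets, which carry a second gene's symbol as well (those of MRPL51, MRPS6, MRPS24 and MRPS28), were not used, and MRPS36 is listed under the symbol KGD4 and so is no member.

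The samples were COLO829 cells, an established melanoma line with the activating BRAFV600E mutation, and RNA of each was read on 1 of 8 Affymetrix arrays. Every culture carried a pGIPZ lentiviral hairpin, went through 2 days of puromycin and then spent 24 h with drug or solvent. The groups, of 2 arrays each (A and B), were MITF hairpin with 1 µM PLX4032 (knockdown PLX4032), MITF hairpin with DMSO (knockdown DMSO), scrambled hairpin with 1 µM PLX4032 (scrambled PLX4032) and scrambled hairpin with DMSO (scrambled DMSO). MITF is the lineage transcription factor of melanocytes, and PLX4032 (vemurafenib) inhibits mutant BRAF. The labels name 1 MITF hairpin, 1 cell line and 1 time, and do not say whether A and B were separate cultures, so the p-values here cover the spread between arrays A and B, and this spread may be technical only.

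Mitochondrial ribosomes translate the few messages of mitochondrial DNA, all of which code for subunits of the respiratory chain and the ATP synthase. Their RNA comes from mitochondrial DNA, whereas every protein of the particle is encoded in the nucleus, made on cytosolic ribosomes and imported. Some of these proteins descend from bacterial ribosomal proteins and others were gained by mitochondria. In melanoma, MITF drives PPARGC1A, the gene of the coactivator PGC-1α, which promotes mitochondrial biogenesis.

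The stretches of DNA in front of the genes were read from RefSeq promoter windows (GRCh38.p14), which run from 250 bases before to 50 after a start and were found for 66 of the 73 members (82 windows). Both strands were searched. The ETS and GABP core CCGGAAG was in 29 members (43.9%), where 16.5% of 15842 protein-coding genes and 12.2% of all 27305 genes with a window hold it. The YY1 motif AAGATGGCG was in 12 members (18.2%, against 3.21% of protein-coding genes) and the NRF1 motif GCATGCGC in 6 (9.09%, against 4.89%). The E-box CACGTG, the core bound by MITF and MYC, was in 9 members (13.6%, against 10.9%), its extended form TCACGTGA, which contains it, in 3 (4.55%, against 1.65%), and the ESRRA motif TCAAGGTCA in 0 (against 0.335%). In all, 38 members held at least 1 of the first 3 motifs, and the share of all genes that do was not counted. A match is a run of letters and not a site shown to be bound, and its absence says only that the letters are not in the window.

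The bases just before the start are shown for 5 members whose levels, described further on, took different courses, each 160 bases long and written 5′ to 3′ on the gene's own strand, with motif matches in capitals. MRPL17, lower under PLX4032 with either hairpin, lies at chr11:6683341-6683500 on the minus strand and holds 2 NRF1 stretches, the first a palindrome. MRPS12, lower with both perturbations, is shown for the second of its starts at chr19:38930794-38930953 on the plus strand, and MRPS18A, the member that rose, at chr6:43687792-43687951 on the minus strand. Each of these has 1 CCGGAAG, and the AAGATGGCG of MRPS18A lies outside the bases printed. MRPL44, which rose under PLX4032, lies at chr2:223957303-223957462 on the plus strand, and MRPS25, lower in every knockdown array, at chr3:15065316-15065475 on the minus strand. Neither of these holds any of the 6 motifs in its window. Whether a motif goes with a course was not tested.
MRPL17: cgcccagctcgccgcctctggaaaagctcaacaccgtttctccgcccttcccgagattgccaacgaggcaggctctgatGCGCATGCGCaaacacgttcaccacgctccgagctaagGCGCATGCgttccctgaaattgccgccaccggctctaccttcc
MRPS12: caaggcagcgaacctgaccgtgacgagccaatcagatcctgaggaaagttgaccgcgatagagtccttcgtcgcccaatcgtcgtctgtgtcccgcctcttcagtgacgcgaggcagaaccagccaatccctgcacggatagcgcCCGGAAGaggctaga
MRPS18A: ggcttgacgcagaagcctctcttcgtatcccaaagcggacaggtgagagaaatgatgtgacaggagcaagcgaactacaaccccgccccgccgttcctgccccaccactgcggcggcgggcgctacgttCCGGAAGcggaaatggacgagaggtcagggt
MRPL44: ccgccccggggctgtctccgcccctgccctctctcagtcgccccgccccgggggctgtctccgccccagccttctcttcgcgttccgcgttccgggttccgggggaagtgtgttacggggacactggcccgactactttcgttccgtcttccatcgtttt
MRPS25: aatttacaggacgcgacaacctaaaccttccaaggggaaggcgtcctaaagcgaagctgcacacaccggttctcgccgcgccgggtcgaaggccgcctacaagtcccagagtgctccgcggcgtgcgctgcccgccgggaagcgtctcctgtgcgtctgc

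Values are log2 signals, changes are log2 differences ± SE from 1 limma fit over 8 arrays, and a gene was called at a Benjamini-Hochberg adjusted p below 0.05 over all 18404 genes. A signal of 1 probe set does not rank it against another gene, and in bulk RNA fewer cells of a kind and less RNA per cell cannot be told apart. Under PLX4032, MITF read 10.07 and 10.08 in knockdown cells, against 10.88 and 10.80 in scrambled cells, and in DMSO it read 9.57 and 9.47 in knockdown cells, against 10.44 and 10.46 in scrambled cells. DUSP6, a target of the BRAF pathway, read 8.62 and 8.61 in knockdown PLX4032 cells, against 11.22 and 11.10 in knockdown DMSO cells. In scrambled cells it read 8.0 and 8.03 with PLX4032, against 10.64 and 10.76 with DMSO. Both genes therefore lay as the labels say, with no overlap. The 7 measured melanocyte markers had a median level of 10.72, whereas leukocyte (4 genes), keratinocyte (5) and fibroblast (5) markers had medians of 4.19, 4.43 and 5.94, the median over all genes being 6.80. The mean of the melanocyte markers ran from 9.28 to 11.08 over the arrays, that of the leukocyte markers from 4.02 to 4.39, that of the fibroblast markers from 6.05 to 6.23 and that of the keratinocyte markers from 4.72 to 4.89. With both perturbations 3 of 5 fibroblast markers were called higher and 1 lower (median 0.30), 1 of 4 leukocyte markers was higher (CD14, by 0.72), 0 of 5 keratinocyte markers were called, and 4 of 7 melanocyte markers were higher and 3 lower. The part of these shifts in the results was not tested. One array stood apart: scrambled DMSO B had the highest upper quartile over all genes (8.88, against 8.72 to 8.80 on the others) and the highest median of the cytosolic ribosomal protein genes (11.40). It also held the highest value of 49 of the 73 members, against 7 for its partner A. Counts of members in the comparisons that use it, and counts or medians of the other lists with both perturbations, are also given without it.

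Most mitoribosomal protein genes were lower in cells with both perturbations than in cells with neither. The median over the 73 members was 8.86 and 9.03 on the knockdown PLX4032 arrays, 9.17 and 9.20 in knockdown DMSO, 9.32 and 9.27 in scrambled PLX4032 and 9.43 and 9.50 in scrambled DMSO. The 2 arrays with both perturbations thus held the lowest medians, and 58 of 73 members had their lowest value on one of them. Between knockdown PLX4032 and scrambled DMSO, 55 members fell and 1 rose, and 17 were not called. Those 55 are 75.3% of the members, where 21.5% of all genes were called lower and 27.1% higher. The median change was -0.45, a 1.37-fold lower level, against 0.08 over all genes. Of the 3954 genes whose mean lay between 8.25 and 9.88, the middle range of the members, 37.4% were called lower, with a median of -0.06. Without scrambled DMSO B, 47 members (64.4%) were called lower with a median of -0.40, against 30.9% of the genes of like brightness.

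**Figure D1:**
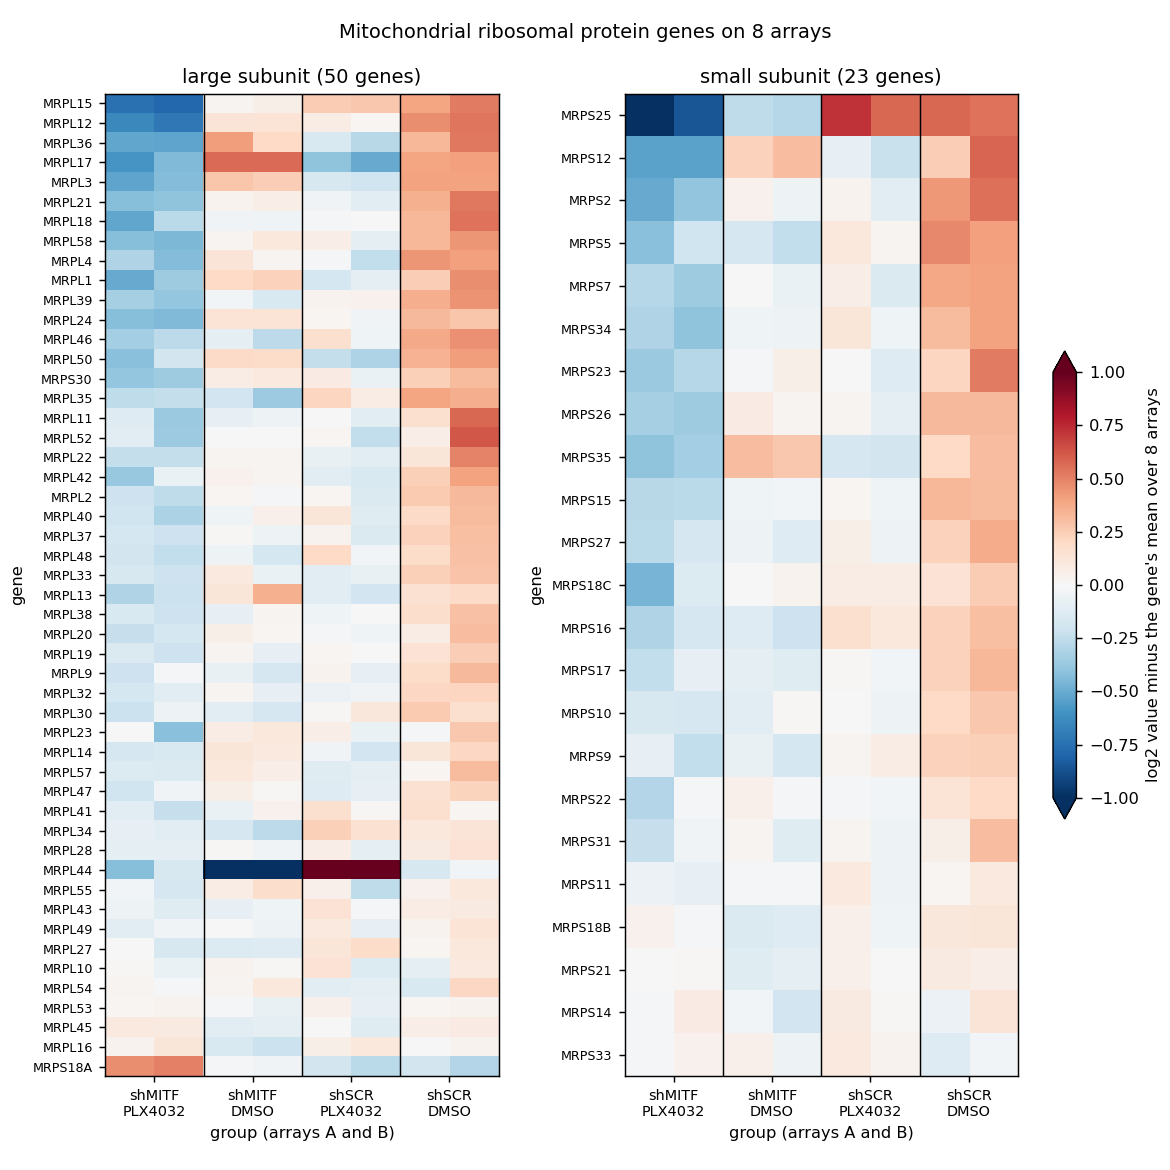
Log2 value of each of the 73 genes on each array, relative to that gene's own mean over 8 arrays (blue lower, red higher, scale cut at 1 in either direction), in columns by group (shMITF, MITF hairpin; shSCR, scrambled hairpin) with A left of B and rows ordered by the change with both perturbations. The knockdown PLX4032 columns are mostly blue and the scrambled DMSO columns mostly red, while MRPL44 is highest in scrambled PLX4032 and MRPS18A in knockdown PLX4032.

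Among large-subunit genes, the falls with both perturbations were largest for MRPL15, MRPL12, MRPL36, MRPL17 and MRPL3, of which MRPL36 rests on 1 of its 2 probe sets. MRPL12 forms the stalk that recruits translation factors to the ribosome. It read 8.82 and 8.75 in knockdown PLX4032 cells, 9.59 and 9.60 in knockdown DMSO cells, 9.54 and 9.48 in scrambled PLX4032 cells and 9.93 and 10.00 in scrambled DMSO cells. No 2 groups overlapped, and the groups with a single perturbation lay between the extremes and close to each other. Its fall with both was -1.18 ± 0.079, or 2.27-fold (adjusted p = 4.1e-07). MRPL36, whose bacterial counterpart is among the smallest ribosomal proteins, was the only member with a second usable probe set, and the sets disagreed. Its brighter set read 9.31 and 9.30 in knockdown PLX4032 cells, against 10.16 and 10.36 in scrambled DMSO cells (-0.95 ± 0.10, adjusted p = 1.73e-05). The dimmer set read 7.86 and 7.38 against 7.68 and 6.81 in the same groups, which overlap. With the mean of both sets the change was -0.29 and was not called (adjusted p = 0.067). MRPL17 and MRPL3, taken up again under PLX4032, fell by 0.92 and 0.88 with both (adjusted p = 4.85e-06 and 4.29e-06).

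In the small subunit the largest falls were those of MRPS25, described further on, MRPS2 and MRPS12. MRPS2 read 9.37 and 9.48 in knockdown PLX4032 cells, 9.92 and 9.83 in knockdown DMSO cells, 9.91 and 9.77 in scrambled PLX4032 cells and 10.31 and 10.43 in scrambled DMSO cells. Its fall was -0.95 ± 0.090, or 1.93-fold (adjusted p = 6.85e-06), with the single perturbations overlapping each other between the extremes. MRPS12, the counterpart of the bacterial protein at the decoding site, read 7.54 and 7.54 in knockdown PLX4032 cells, 8.30 and 8.38 in knockdown DMSO cells, 7.99 and 7.85 in scrambled PLX4032 cells and 8.32 and 8.65 in scrambled DMSO cells. The knockdown PLX4032 arrays lay below all others, and the fall was -0.95 ± 0.11, or 1.93-fold (adjusted p = 2.87e-05). Both subunits took part: 37 of 50 large-subunit genes fell and 1 rose (median -0.44), and 18 of 23 small-subunit genes fell (median -0.50). By descent, 34 of 45 genes of bacterial origin fell and 1 rose (median -0.44), and 21 of 28 genes found only in mitochondria fell (median -0.49). On leaving out scrambled DMSO B, 31 large-subunit and 16 small-subunit genes were lower, 30 of bacterial origin and 17 found only in mitochondria. No difference between these classes was tested. MRPS30, a large-subunit protein by structure, fell by 0.65 (± 0.084, adjusted p = 7.76e-05).

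MITF knockdown without drug lowered part of the group. Against scrambled DMSO cells, 34 members fell and 0 rose, which is 46.6% of the members, where 18.8% of all genes were called lower and 14.4% higher. Of the genes of like brightness (mean between 8.25 and 9.88), 32.3% were called lower. The median change was -0.25, against -0.12 for genes of like brightness and 0.02 over all genes, and 65 of 73 members lay below 0. The largest falls were those of MRPL44 and MRPS25, followed by MRPL35, MRPS5 and MRPL46. MRPL35 read 9.37 and 9.20 in knockdown DMSO cells, against 9.96 and 9.93 in scrambled DMSO cells (-0.66 ± 0.090, 1.58-fold, adjusted p = 0.000225). MRPS5, which lies near the messenger RNA entry of the small subunit, read 8.87 and 8.79 in knockdown DMSO cells, against 9.52 and 9.45 in scrambled DMSO cells (-0.66 ± 0.094, adjusted p = 0.000297). Neither pair overlapped. The count was 18 without knockdown DMSO B and also 18 without scrambled DMSO B, whereas the count over all genes was 3459 with every array, 2034 without the first and 2239 without the second. Without scrambled DMSO B the members lower were 24.7%, against 20.2% of the genes of like brightness, and the medians were -0.19 and -0.08.

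MRPL46 and MRPS11 are neighbouring genes on opposite strands whose promoter windows overlap, and only MRPL46 was called. MRPL46 read 9.56 and 9.40 in knockdown DMSO cells, against 10.04 and 10.12 in scrambled DMSO cells (-0.60 ± 0.096, adjusted p = 0.000693). MRPS11 read 11.19 and 11.19 in knockdown DMSO cells, against 11.23 and 11.31 in scrambled DMSO cells, a change of -0.08 ± 0.084 that was not called (adjusted p = 0.488). With both perturbations MRPL46 fell by 0.72, and MRPS11 had a change of -0.13 (adjusted p = 0.227). The difference between the neighbours was not tested, and MRPS11 is among the 3 brightest members, where such arrays compress changes.

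Knockdown was also compared in the presence of PLX4032, on arrays that share none with the comparison in DMSO. There 26 members fell and 1 rose, 35.6% of the members lower, where 15.0% of all genes were called lower and 13.5% higher, and 25.4% of the genes of like brightness lower. The median was -0.19, against -0.06 for genes of like brightness and 0.02 over all genes. The 19 members lower in both settings are 73.1% of the 26 and 55.9% of the 34. Over all genes, 1787 were lower in both, 64.7% and 51.7% of the 2 lists. Across the 73 members the 2 changes had a Pearson correlation of 0.72, as a description over genes on shared platforms, against 0.64 over all 18404 genes (0.69 over the members without scrambled DMSO B). The largest falls were those of MRPL44, MRPS25, MRPL15, MRPL12 and MRPL24, and MRPL12 fell by 0.73. MRPL24 read 8.61 and 8.59 in knockdown PLX4032 cells, against 9.05 and 9.0 in scrambled PLX4032 cells, with no overlap (-0.42 ± 0.078, adjusted p = 0.00172). The count of members rested on single arrays. Without scrambled PLX4032 A, the share of members called lower was no larger than that of all genes. The median over the members was -0.15 without that array and -0.19 without knockdown PLX4032 A.

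**Figure D2:**
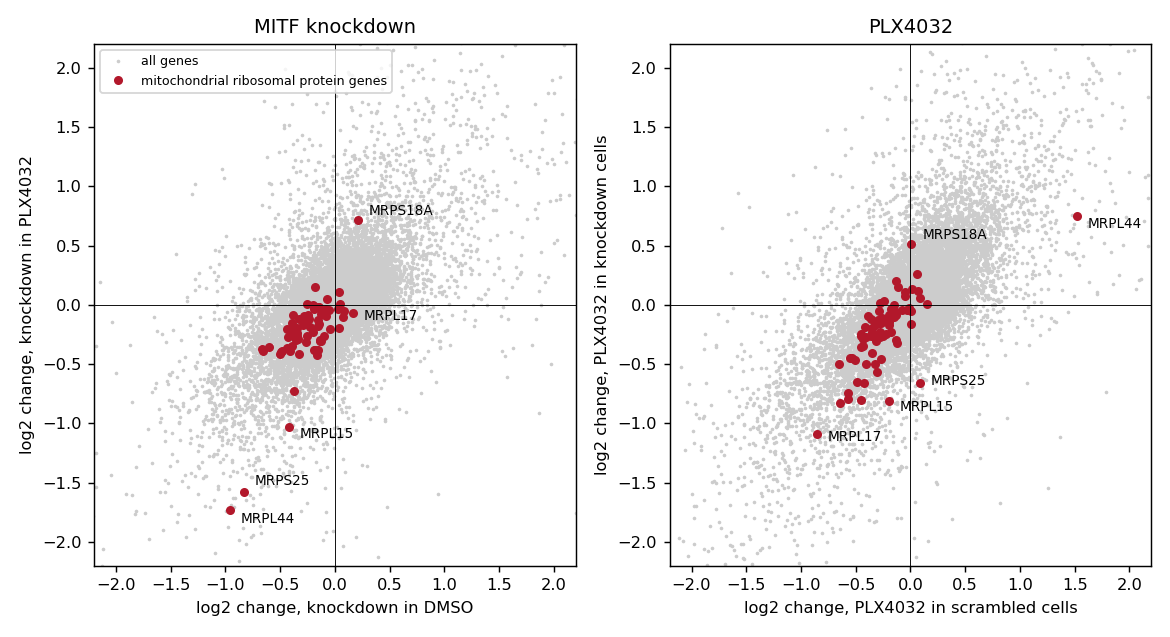
Log2 change of each gene (red, mitochondrial ribosomal proteins, n = 73; grey, all genes; points beyond the axes not shown) for knockdown in PLX4032 against knockdown in DMSO, and for PLX4032 in knockdown cells against PLX4032 in scrambled cells. Most red points lie at the lower left of each panel. MRPL44 is at -1.73 in PLX4032 and -0.96 in DMSO for knockdown, and at 0.75 in knockdown and 1.52 in scrambled cells for PLX4032.

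PLX4032 without MITF knockdown also lowered members of the group. In scrambled cells 39 fell and 1 rose, 53.4% of the members lower, where 16.8% of all genes were called lower and 17.3% higher, and 28.8% of the genes of like brightness lower. The median was -0.27, against -0.03 for genes of like brightness and 0.05 over all genes. The largest fall was that of MRPL17. It read 9.87 and 9.77 in scrambled PLX4032 cells, against 10.67 and 10.68 in scrambled DMSO cells (-0.85 ± 0.084, 1.81-fold, adjusted p = 1.76e-05). It read 9.68 and 9.83 in knockdown PLX4032 cells, against 10.84 and 10.84 in knockdown DMSO cells (-1.09 ± 0.084, 2.12-fold, adjusted p = 2.15e-06). The PLX4032 arrays lay below the DMSO arrays whichever hairpin the cells carried. The hairpin itself went with changes of -0.07 in PLX4032 and 0.17 in DMSO, neither of them called (adjusted p = 0.609 and 0.157).

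MRPL50, gained by mitochondria, was also lower on every PLX4032 array than on any DMSO array. It read 10.22 and 10.15 in scrambled PLX4032 cells, against 10.80 and 10.87 in scrambled DMSO cells (-0.65 ± 0.093, adjusted p = 0.000253). It read 10.04 and 10.27 in knockdown PLX4032 cells, against 10.65 and 10.64 in knockdown DMSO cells (-0.49, adjusted p = 0.00147). MRPL3, whose bacterial counterpart reaches toward the catalytic centre, read 9.74 and 9.70 in scrambled PLX4032 cells, against 10.30 and 10.30 in scrambled DMSO cells (-0.57 ± 0.079, adjusted p = 0.000199). MRPS12 fell by 0.57 (± 0.11, adjusted p = 0.0019) in the same comparison. The brighter MRPL36 set fell by 0.65, a call not made on the mean of its 2 sets (-0.17, adjusted p = 0.306). The count of 39 was 20 without scrambled DMSO B and 18 without scrambled PLX4032 B, where the count over all genes was 3085 with every array, 2363 without the first and 2269 without the second. Without scrambled DMSO B the members lower were 27.4%, against 21.2% of the genes of like brightness, and the median was -0.21.

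In knockdown cells, on separate arrays, PLX4032 lowered 26 members and raised 3, 35.6% of the members lower, where 15.1% of all genes were called lower and 18.6% higher, and 26.6% of the genes of like brightness lower. The median was -0.19, against 0.02 for genes of like brightness and 0.04 over all genes. The 23 members lower under PLX4032 in both kinds of cell are 88.5% of the 26 and 59.0% of the 39, and over all genes the 1944 shared are 69.7% and 63.0% of the 2 lists. The Pearson correlation of the 2 changes was 0.73 across the members (0.70 without scrambled DMSO B) and 0.71 across all genes. The falls were largest for MRPL17, MRPL36, MRPL12, MRPL15 and MRPS12. MRPL12 fell by 0.81 in knockdown cells (adjusted p = 1.33e-05) and by 0.45 in scrambled cells (adjusted p = 0.00102), a difference of -0.35 ± 0.11 that did not pass (adjusted p = 0.0701). The 3 risers were MRPL44, MRPS18A and MRPL16. MRPL16 read 9.30 and 9.38 in knockdown PLX4032 cells, against 9.11 and 9.05 in knockdown DMSO cells, with no overlap. Its rise of 0.26 ± 0.080 (adjusted p = 0.0276) was not called with each array centred on its median (0.21, adjusted p = 0.0527), nor without knockdown DMSO A, knockdown DMSO B or knockdown PLX4032 B (adjusted p = 0.0787, 0.158 and 0.145).

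Asking whether PLX4032 acted differently in knockdown and scrambled cells gave 3 members with a negative and 1 with a positive interaction, 4.11% of the members on the lower side, where 4.85% of all genes were called lower and 6.97% higher. Most of the group therefore showed no detectable difference at this number of arrays, the median SE of an interaction being 0.133. The 4 members were MRPL44, MRPS25, MRPL15 and MRPS18A.

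MRPL44, a large-subunit protein with the fold of a ribonuclease III, was the only member called higher under PLX4032 in both kinds of cell. It read 10.75 and 10.65 in scrambled PLX4032 cells, against 9.11 and 9.24 in scrambled DMSO cells (1.52 ± 0.10, 2.87-fold higher, adjusted p = 1.25e-06). It read 8.84 and 9.11 in knockdown PLX4032 cells, against 8.27 and 8.17 in knockdown DMSO cells (0.75 ± 0.10, 1.68-fold higher, adjusted p = 0.000177). The scrambled PLX4032 arrays stood above all others and the knockdown DMSO arrays below all others. On knockdown it fell by 1.73 on the log2 scale in PLX4032 (3.32-fold, adjusted p = 4.02e-07) and fell by 0.96 in DMSO (1.95-fold, adjusted p = 4.37e-05). The interaction was -0.77 ± 0.15 (adjusted p = 0.00599), and with both perturbations the level was not distinguished from that in scrambled DMSO cells (-0.21, adjusted p = 0.121). The same order of group means was held by MITF and by the melanocyte markers MLANA and PMEL, and no relation between these genes and MRPL44 was tested. PPARGC1A, which is no member and was set beside MRPL44 after both were seen, had that order too. It read 6.70 and 6.97 in knockdown PLX4032 cells, 5.66 and 5.09 in knockdown DMSO cells, 9.63 and 9.46 in scrambled PLX4032 cells and 8.17 and 8.20 in scrambled DMSO cells.

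**Figure D3:**
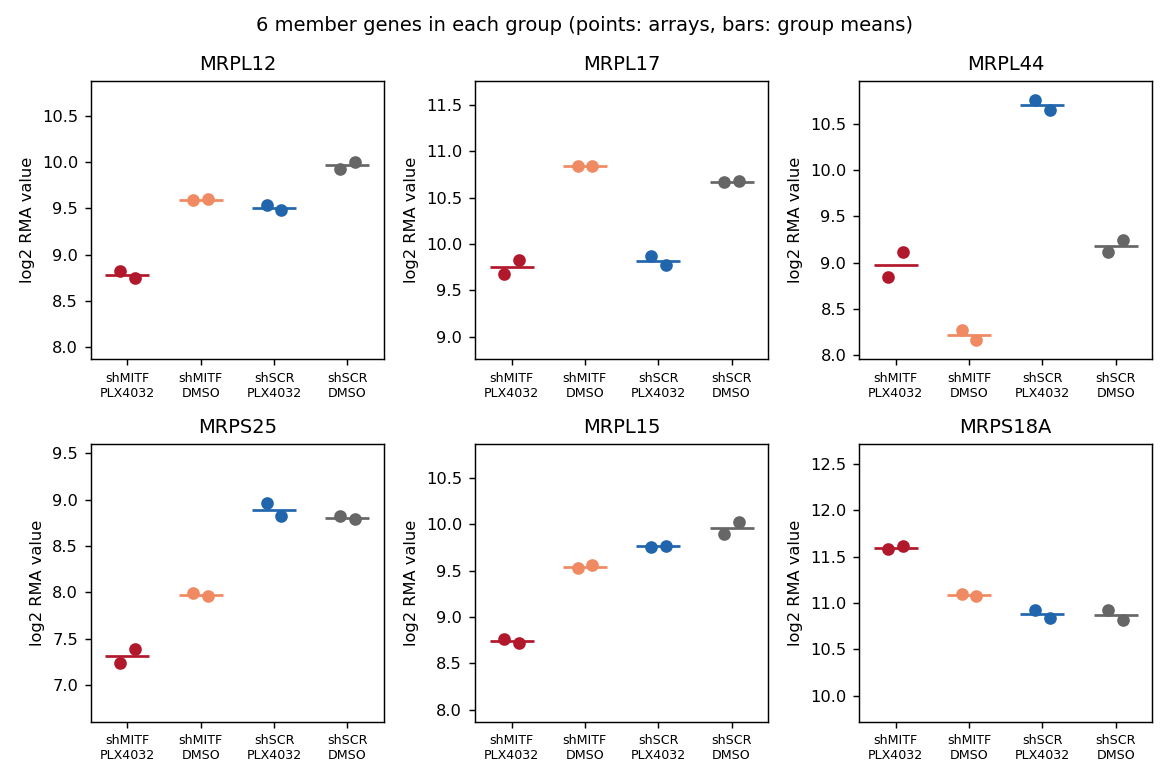
Log2 values of 6 members on each array (points) with group means (bars), groups from left to right knockdown PLX4032, knockdown DMSO, scrambled PLX4032 and scrambled DMSO, each panel on its own level but the same span. MRPL12 is lowest with both perturbations, MRPL17 is low under PLX4032 in both kinds of cell, MRPL44 is highest in scrambled PLX4032 cells, and MRPS18A is highest with both.

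MRPS25, a small-subunit protein found only in mitochondria, was lower in every knockdown array. It read 7.24 and 7.39 in knockdown PLX4032 cells, 7.99 and 7.96 in knockdown DMSO cells, 8.97 and 8.82 in scrambled PLX4032 cells and 8.82 and 8.79 in scrambled DMSO cells. The scrambled groups, drug or no drug, lay next to each other, and the knockdown groups lay apart from them and from each other. On knockdown it fell 2.99-fold in PLX4032 (-1.58 ± 0.089, adjusted p = 2.45e-07) and 1.78-fold in DMSO (-0.83 ± 0.089, adjusted p = 3.96e-05). Under PLX4032 it fell by 0.66 in knockdown cells (adjusted p = 0.000143), against a change of 0.09 in scrambled cells that was not called (adjusted p = 0.488), an interaction of -0.75 ± 0.13 (adjusted p = 0.00274). The fall with both, -1.49 or 2.81-fold (adjusted p = 1.62e-07), was the largest of any member.

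MRPL15 had a similar interaction. It read 8.76 and 8.72 in knockdown PLX4032 cells, 9.53 and 9.56 in knockdown DMSO cells, 9.76 and 9.77 in scrambled PLX4032 cells and 9.90 and 10.02 in scrambled DMSO cells. All 4 groups lay apart, with the widest gap below knockdown DMSO. Under PLX4032 it fell by 0.81 in knockdown cells (adjusted p = 1.59e-05), while its change in scrambled cells was -0.20 (adjusted p = 0.0878), an interaction of -0.61 ± 0.11 (adjusted p = 0.00541). The fall with both was 2.34-fold (-1.22 ± 0.081, adjusted p = 3.7e-07).

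MRPS18A, one of the proteins of the MRPS18 family, was the only member higher with both perturbations. It read 11.58 and 11.62 in knockdown PLX4032 cells, 11.10 and 11.08 in knockdown DMSO cells, 10.93 and 10.84 in scrambled PLX4032 cells and 10.93 and 10.82 in scrambled DMSO cells. The 2 scrambled groups overlapped and the knockdown PLX4032 arrays stood above all others. With both perturbations it rose by 0.72 (1.65-fold, adjusted p = 2.65e-05), and PLX4032 raised it by 0.51 in knockdown cells (adjusted p = 0.000506), against a change of 0.01 in scrambled cells (adjusted p = 0.944). The interaction, 0.50 ± 0.12 (adjusted p = 0.017), was not called without knockdown DMSO A, knockdown DMSO B, knockdown PLX4032 B or scrambled PLX4032 B (adjusted p between 0.0537 and 0.0727). A relative in the small subunit, MRPS18C, was one of the 3 dimmest members. It read 5.68 and 6.01 in knockdown PLX4032 cells, against 6.29 and 6.40 in scrambled DMSO cells, a change of -0.50 (adjusted p = 0.00255) that was -0.33 without knockdown PLX4032 A.

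Sorted by their calls, 10 members were lower in all 4 comparisons that change 1 factor, namely MRPL12, MRPL18, MRPL21, MRPL39, MRPL58, MRPS2, MRPS7, MRPS15, MRPS26 and MRPS34. There were 5 without scrambled DMSO B, namely MRPL12, MRPL39, MRPS2, MRPS7 and MRPS15. MRPL58 (ICT1) is a peptidyl-tRNA hydrolase built into the large subunit that can release stalled ribosomes. MRPL13, MRPL14, MRPL17, MRPL50 and MRPS35 were lower under PLX4032 in both kinds of cell and in neither knockdown comparison. MRPL34, MRPL35, MRPL44, MRPL48 and MRPS16 were lower on knockdown in both settings and not called lower under PLX4032. For 7 members (MRPL19, MRPL20, MRPL40, MRPL41, MRPL57, MRPS22 and MRPS31) the fall passed only with both perturbations. These classes follow the threshold, and no difference between them was tested. The share of all 18404 genes with each pattern, or with no call, was not counted. The sizes of the classes therefore only describe the members.

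For 14 members no pairwise comparison was called, among them MRPL45, MRPL53, MRPL54 and MRPS11, the first of which holds the ribosome at the inner membrane. MRPL45 read 11.42 and 11.41 in knockdown PLX4032 cells, against 11.39 and 11.40 in scrambled DMSO cells, and MRPL53 read 11.38 and 11.40, against 11.38 and 11.40. Both changes were within 0.02 (SE 0.080 and 0.081). MRPL54 had one of the dimmest signals, 5.92 and 5.87 in knockdown PLX4032 cells against 5.74 and 6.10 in scrambled DMSO cells, and a low level on these arrays does not show that a message was absent. MRPS9, dim as well, read 5.81 and 5.65 in knockdown PLX4032 cells, against 6.12 and 6.13 in scrambled DMSO cells, and fell by 0.39 (adjusted p = 0.00355). The other 10 genes with no call were MRPL10, MRPL23, MRPL27, MRPL28, MRPL43, MRPL49, MRPL55, MRPS14, MRPS21 and MRPS33.

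The counts for the mitoribosome can be set beside those for the 59 genes of the cytosolic ribosome. On knockdown in DMSO 34 of 73 mitoribosomal genes fell, against 3 of 59 cytosolic ones (5.08%, median -0.08) and 18.8% of all genes. With both perturbations 55 mitoribosomal genes fell and 1 rose, against 23 and 2 of the cytosolic ones (median -0.19). The 23 are 39.0% of the cytosolic genes, where 21.5% of all genes were called lower. Under PLX4032 in scrambled cells 39 mitoribosomal and 16 cytosolic genes fell (cytosolic median -0.20). The 16 are 27.1% of the cytosolic genes, against 16.8% of all genes. For the cytosolic genes, knockdown in PLX4032 gave 2 lower and 1 higher (median -0.00), 3.39% lower against 15.0% of all genes. PLX4032 in knockdown cells gave 18 lower and 1 higher (median -0.14), 30.5% lower against 15.1% of all genes. Without scrambled DMSO B the cytosolic medians were -0.06 on knockdown in DMSO, -0.17 under PLX4032 in scrambled cells and -0.18 with both. Over all genes the medians were then 0.01, 0.03 and 0.07. The mitoribosomal genes are much dimmer on these arrays, with a median level of 9.26 against 11.22 for the cytosolic ones. How far brightness compresses the cytosolic changes was not tested.

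**Figure D4:**
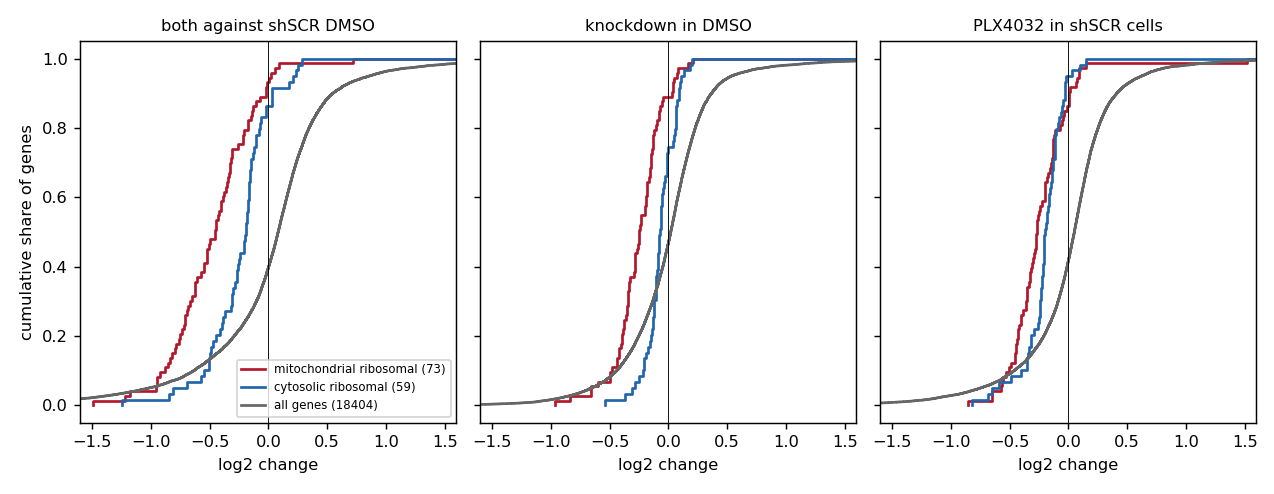
Cumulative share of genes at or below each log2 change for mitochondrial ribosomal proteins (red, n = 73), cytosolic ribosomal proteins (blue, n = 59) and all 18404 genes (grey), with both perturbations, for knockdown without drug and for PLX4032 in scrambled (shSCR) cells. The red curve lies left of the grey one in each panel, and its median is at -0.45, -0.25 and -0.27.

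The list of mitoribosome subunits that carry other symbols had 4 genes measured. DAP3, a GTP-binding protein of the small subunit, read 8.38 and 8.44 in knockdown PLX4032 cells, 8.81 and 8.77 in knockdown DMSO cells, 8.82 and 8.76 in scrambled PLX4032 cells and 9.24 and 9.27 in scrambled DMSO cells. The single perturbations lay together between the extremes, and DAP3 fell in all 5 pairwise comparisons, by 0.84 with both (± 0.079, adjusted p = 5.56e-06). PTCD3 and CHCHD1 fell with both by 0.54 and 0.41 (adjusted p = 0.00018 and 0.00234), while GADD45GIP1, of the large subunit, was called in none of the comparisons (-0.13 with both, adjusted p = 0.319).

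Of 26 genes for the assembly of the mitoribosome, 15 fell, 0 rose and 11 were not called with both perturbations (57.7% lower, against 21.5% of all genes and 37.4% of genes of like brightness, median -0.30). Without scrambled DMSO B, 11 fell. TFB1M, the methyltransferase that modifies the RNA of the small subunit, read 5.68 and 6.35 in knockdown PLX4032 cells, 8.02 and 8.0 in knockdown DMSO cells, 6.99 and 6.88 in scrambled PLX4032 cells and 8.97 and 9.06 in scrambled DMSO cells. No 2 groups overlapped, and TFB1M fell 7.97-fold with both (-3.0 ± 0.17, adjusted p = 9.63e-08). Its change on knockdown in PLX4032, -0.92, was -0.59 without knockdown PLX4032 A, the lowest array. C1QBP and FASTKD2, mitochondrial proteins needed to build the particle, fell by 1.17 and 1.11 with both (adjusted p = 6.75e-07 and 4.53e-06). Assembly genes were lower in 11 cases on knockdown in DMSO, 10 under PLX4032 in scrambled cells, 11 under PLX4032 in knockdown cells and 10 on knockdown in PLX4032, with 0 higher in each. These are 42.3%, 38.5%, 42.3% and 38.5% of the list, against 32.3%, 28.8%, 26.6% and 25.4% of the genes of like brightness. Leaving out scrambled DMSO B, 6 assembly genes (23.1%) were lower on knockdown in DMSO, against 20.2% of the genes of like brightness. Without that array PLX4032 lowered 5 (19.2%) in scrambled cells, against 21.2%. Both shares of the assembly list then lay close to those of genes of like brightness.

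Of 13 translation factors and regulators, 9 fell and 1 rose with both perturbations (median -0.45), and 7 fell without scrambled DMSO B. The 9 that fell on all arrays are 69.2% of the list, against 21.5% of all genes and 37.4% of genes of like brightness. Knockdown lowered 61.5% of the list in DMSO (0 higher) and 53.8% in PLX4032 (1 higher), against 32.3% and 25.4% of genes of like brightness. With PLX4032, 30.8% were lower in scrambled (1 higher) and in knockdown cells (2 higher), close to 28.8% and 26.6% of such genes. Without scrambled DMSO B the list's median for knockdown in DMSO was -0.23, against -0.08 for genes of like brightness. For PLX4032 with the scrambled hairpin it was then -0.06, against 0.0. With both perturbations LRPPRC and SLIRP, partners that stabilise mitochondrial messages, fell by 0.72 and 0.62 (adjusted p = 9.03e-05 and 0.000129). TUFM, the elongation factor that delivers aminoacyl-tRNA, fell by 0.63 with both (adjusted p = 8.86e-05). MTRF1, a release factor, was higher under PLX4032. It read 7.47 and 7.42 in scrambled PLX4032 cells, against 6.94 and 7.0 in scrambled DMSO cells, with no overlap (0.48 ± 0.090, adjusted p = 0.00175), and PLX4032 raised it by 0.59 in knockdown cells (adjusted p = 0.000389). The riser with both perturbations was MTRFR, a rescue factor for stalled ribosomes, at 0.38 (adjusted p = 0.00329).

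The mitochondrial aminoacyl-tRNA synthetases and the amidotransferase (19 genes) mostly fell on knockdown: 11 were lower in PLX4032 and 14 in DMSO, with 0 higher. The 11 are 57.9% of the list, against 15.0% of all genes and 25.4% of genes of like brightness. Under PLX4032, 6 fell and 2 rose in knockdown cells, and 5 fell and 3 rose in scrambled cells. The 31.6% lower and 10.5% higher in knockdown cells compare with 26.6% and 28.9% of genes of like brightness. The 26.3% lower and 15.8% higher in scrambled cells lie close to the 28.8% and 23.3% of genes of like brightness, whereas on knockdown in DMSO 73.7% were lower, against 32.3%. Leaving out scrambled DMSO B, the median of the list on knockdown in DMSO was -0.33, against -0.08 for genes of like brightness. Under PLX4032 in scrambled cells it was then -0.08, against 0.0. With both perturbations 13 fell, 0 rose and 6 were not called. The 13 are 68.4% of the list, against 21.5% of all genes and 37.4% of genes of like brightness. Without scrambled DMSO B the median with both was -0.41, against -0.04 for genes of like brightness. NARS2, which charges the tRNA for asparagine, read 9.12 and 9.30 in knockdown PLX4032 cells, 9.42 and 9.39 in knockdown DMSO cells, 10.96 and 10.85 in scrambled PLX4032 cells and 10.57 and 10.62 in scrambled DMSO cells. Every knockdown array lay below every scrambled one, the change being -1.70 in PLX4032 and -1.19 in DMSO (adjusted p = 1.51e-07 and 3.09e-06). AARS2 and MARS2, for alanine and methionine, fell in all 5 pairwise comparisons, by 1.40 and 1.29 with both (adjusted p = 1.76e-07 and 6.44e-07). HARS2, for histidine, was lower on knockdown (-0.41 in DMSO, adjusted p = 0.00282) and higher under PLX4032 (0.35 in scrambled cells, adjusted p = 0.00577).

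Genes that transcribe and copy mitochondrial DNA, and so supply the ribosomal RNA, fell in 7 of 10 cases with both perturbations, with 0 higher (median -0.54), and in 5 without scrambled DMSO B. With both perturbations 21.5% of all genes and 37.4% of genes of like brightness were called lower (30.9% of the latter without that array). On knockdown in PLX4032, 2 of the 10 fell, where 15.0% of all genes and 25.4% of genes of like brightness were lower. That last count does not set the list apart. TFAM, which packages that DNA and starts its transcription, read 7.63 and 7.91 in knockdown PLX4032 cells, 8.49 and 8.26 in knockdown DMSO cells, 8.19 and 8.20 in scrambled PLX4032 cells and 8.94 and 8.99 in scrambled DMSO cells. The groups with both and with neither perturbation lay at the ends, and TFAM fell by 1.20 (± 0.11, adjusted p = 5.03e-06). The helicase TWNK fell by 0.78 with both and the single-strand binding protein SSBP1 by 0.76 (adjusted p = 6.37e-05 and 2.05e-05).

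**Figure D5:**
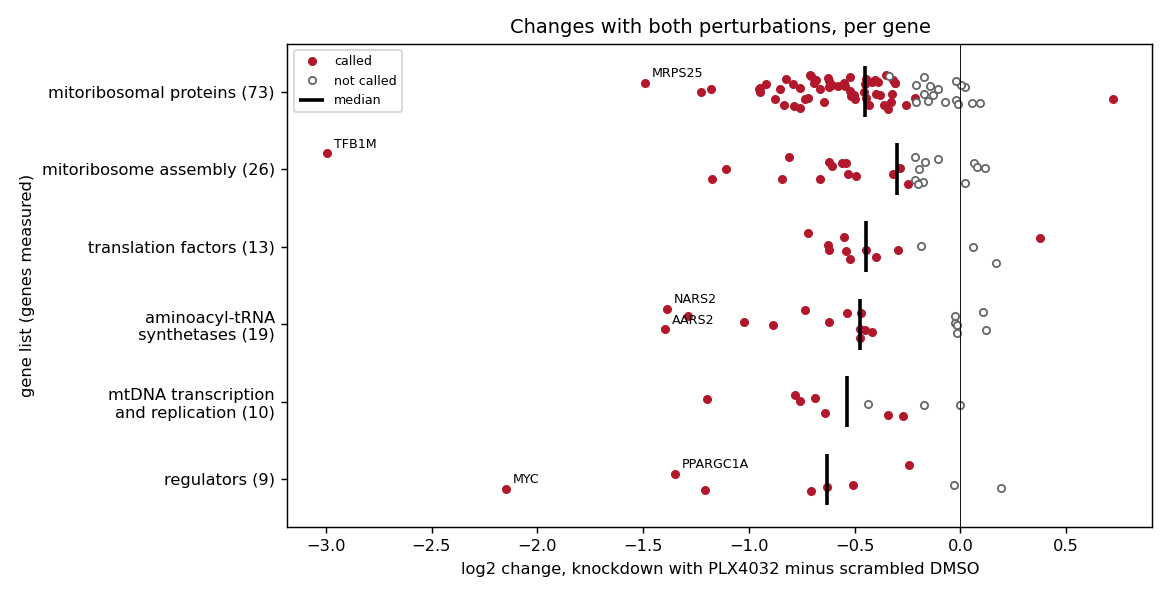
Log2 change with both perturbations (knockdown PLX4032 minus scrambled DMSO) of each gene of the mitoribosome, of 4 lists around it and of the regulators, called genes filled and others open, with a bar at each list's median. The medians lie at -0.45 for the mitoribosomal proteins, -0.30 for assembly, -0.45 for translation factors, -0.47 for synthetases, -0.54 for mitochondrial DNA genes and -0.63 for regulators.

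Among 9 regulators of mitochondrial genes, 7 fell with both perturbations and 0 rose (77.8%, against 21.5% of all genes and 37.4% of genes of like brightness), and 6 fell without scrambled DMSO B. The fall of NRF1 by 0.24 was not called with trended robust variance (adjusted p = 0.0591), nor without knockdown PLX4032 A, knockdown PLX4032 B or scrambled DMSO B (adjusted p = 0.122, 0.0585 and 0.16). MYC, a transcription factor that promotes ribosome and mitochondrial biogenesis, read 9.39 and 9.26 in knockdown PLX4032 cells, 11.13 and 11.04 in knockdown DMSO cells, 10.80 and 10.56 in scrambled PLX4032 cells and 11.45 and 11.50 in scrambled DMSO cells. The knockdown PLX4032 arrays stood below all others, and MYC fell 4.44-fold with both (-2.15 ± 0.098, adjusted p = 2.54e-08). PPRC1, a relative of PGC-1α, read 7.38 and 7.44 in knockdown PLX4032 cells, 8.35 and 8.36 in knockdown DMSO cells, 7.78 and 7.58 in scrambled PLX4032 cells and 8.62 and 8.61 in scrambled DMSO cells. Its groups lay apart in the same order as those of MYC, and under PLX4032 it fell by 0.94 in knockdown and by 0.93 in scrambled cells (adjusted p = 8.24e-06 and 1.15e-05).

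PPARGC1A itself fell 7.03-fold on knockdown in DMSO (-2.81 ± 0.16) and rose 2.56-fold under PLX4032 in scrambled cells (1.36 ± 0.16, adjusted p = 6.79e-05). With both perturbations it fell by 1.35 (adjusted p = 3.86e-05). NRF1, a factor named for its role at nuclear genes of respiration, fell by 0.42 on knockdown in DMSO and by 0.43 under PLX4032 in scrambled cells (adjusted p = 0.00255 and 0.00178). ESRRA, a nuclear receptor that works with PGC-1α, fell by 0.63 with both (adjusted p = 0.000115), and PPARGC1B by 0.51. GABPA and YY1 were called in no pairwise comparison. GABPB1, the other GABP gene of the list, was among the regulators called lower with both perturbations. It read 8.05 and 8.23 in knockdown PLX4032 cells, against 8.70 and 8.99 in scrambled DMSO cells.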

How the data were processed

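The authors deposited log2 values per probe set of 8 Affymetrix Human Gene 1.0 ST arrays. Per the submitters' processing notes these were made with RMA, which corrects background, gives all arrays 1 distribution and summarises probes. It removes a shift shared by most genes and compresses changes of very bright and very dim sets. Its version, the genome build and the authors' annotation: each not given in the sources used here.

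Of 32321 probe sets, 19158 carried 1 symbol in the platform annotation (1388 several, 11775 none), and 19128 of these matched RefSeq (GRCh38.p14) with 0 symbols changed. The brightest set stood for each of 637 genes with several, leaving 18404 genes and no filter. limma 3.58.1 (R 4.3.3) was fitted with 4 group means (4 residual and 6.73 prior degrees of freedom), two-sided, with 6 contrasts and Benjamini-Hochberg adjustment over all genes in each, and tested on simulated data. Precision is limited by the number of arrays (median SE of a change 0.0939). The labels do not say whether the letters A and B pair samples, and the reported fit holds no block for them. Same-letter deviations from group means correlated between -0.094 and 0.329 over 6 pairs of groups. The highest value was that of knockdown PLX4032 with scrambled DMSO. Alternatives were repeated quantile normalization, median centring, leaving out the dimmest 40% of genes, the mean of all probe sets, trended robust variance, the replicate letter as a block and leaving out each array.

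Members and lists were chosen with earlier results of these data known. Named members are, per contrast, up to 5 falls and 5 rises largest in size among called members whose groups do not overlap, the 3 largest called interactions, the 3 brightest and 3 dimmest, and those whose place differs from their name. The interaction of MRPS18A was added after it was seen. MRPS2 lies outside this rule and was given for its fall in the small subunit. Its changes are not in the check of called changes of named genes below. Other genes are subunits with other symbols, fixed regulators and up to 3 genes with the largest called change per list and contrast. Some genes of the lists and markers are not reported here.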

Additional observations from a re-analysis of the deposited data

Results flagged for a closer look

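For 4 members and 4 related genes the change under PLX4032 differed between knockdown and scrambled cells past the threshold of the interaction test (limma, Benjamini-Hochberg adjusted p below 0.05 over 18404 genes). The difference, the PLX4032 change in knockdown cells minus that in scrambled cells, was -0.77 for MRPL44, -0.75 for MRPS25, -0.61 for MRPL15 and 0.50 for MRPS18A on the log2 scale. MRPL44 rose under PLX4032 in both kinds of cell, by 0.75 in knockdown and 1.52 in scrambled cells, so that the difference is one of size. For MYC the difference was -0.96 (adjusted p = 0.00103), with changes of -1.76 in knockdown and -0.79 in scrambled cells. For NRF1 it was 0.60 (adjusted p = 0.00591), with a change of 0.17 in knockdown cells that was not called and one of -0.43 in scrambled cells. NARS2 had -0.51 (adjusted p = 0.0239), with -0.20 in knockdown cells, not called, and a rise of 0.31 in scrambled cells, itself not called without scrambled PLX4032 A or scrambled DMSO A (adjusted p = 0.121 and 0.077). MTRFR had 0.44 (adjusted p = 0.0335), with a rise of 0.45 in knockdown cells and a change of 0.01 in scrambled cells. The last 2 were not called on leaving out single arrays: NARS2 without knockdown DMSO A or B, knockdown PLX4032 A, scrambled PLX4032 A or scrambled DMSO A (adjusted p between 0.0559 and 0.0932), and MTRFR without any array except scrambled DMSO B (between 0.0531 and 0.146).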

How the results depend on the processing

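Of the 181 called changes of named genes, 177 were still called with quantile normalization repeated, 180 with arrays centred on their medians, 181 without the dimmest 40% of genes, 178 with the mean of all probe sets, 178 with trended robust variance and 180 with the replicate block, and 0 changed sign. Leaving out each array in turn reversed the sign of 0 of them. A pairwise change cannot move when the array left out belongs to neither of its groups, so those fits are no check of it. Many of the changes were also named for their size, and the check does not speak for smaller ones. Under the replicate block the members called lower numbered 33 on knockdown in DMSO, 37 under PLX4032 in scrambled cells, 26 under PLX4032 in knockdown cells, 25 on knockdown in PLX4032 and 54 with both perturbations, and among named genes only the MRPL36 change on knockdown in PLX4032 was lost (-0.31, adjusted p = 0.0519). On knockdown in DMSO the members called higher, 0 in the reported fit, were 1 with repeated quantile normalization, centring, the dim filter or trended variance, and the median was -0.18 with repeated quantile normalization. Members called higher under PLX4032 in scrambled cells were 2 with repeated quantile normalization, and positive interactions 2 with the dim filter or trended variance; the cause was not tested. Leaving out 1 array gave 18 to 34 members lower on knockdown in DMSO, 18 to 39 under PLX4032 in scrambled cells, 18 to 29 under PLX4032 in knockdown cells, 7 to 27 on knockdown in PLX4032 and 47 to 54 with both. Positive interactions were 0 to 1, and the median interaction, 0.07, ran from -0.01 (without scrambled DMSO B) to 0.11. Medians of the 5 pairwise comparisons stayed below 0 under every alternative. Signal over background is unknown, since no detection calls were used.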
